A study of Mus musculus with 480 samples.

Results

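The genes described here are 9 genes of the extracellular matrix, of protease inhibition and of the wound response: Thbs1, Timp2, Timp3, Plaur, Plau, F2r, F3, Adam19 and Col23a1. They are 9 of the 53379 genes listed for single mouse lung cells. They were chosen by measured values, because Thbs1, Plaur and F2r were high and Timp3 was low in the cells of the dual-recombinase tracer line, so those levels are given as a description, support nothing, and have no test. 8 of the 9 had reads, and Plau, which encodes the urokinase-type plasminogen activator, had none in any cell.

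The study sorted 480 tdTomato-positive lung epithelial cells, 160 from each of 3 mouse lines, onto 5 plates of 96 wells and sequenced each cell. The question was how cells marked by the tracer line, which is meant to mark bronchioalveolar stem cells (BASCs), compare with cells marked through the club cell or the alveolar type 2 (AT2) driver alone. BASCs-Tracer mice had the genotype Sftpc-DreER, Scgba1a1-CreER (the labels' spelling) and R26-RSR-LSL-tdtomato, so that both recombinases must have acted for a cell to be marked. Scgb1a1-TD mice had Scgba1a1-CreER and R26-tdtomato, and Sftpc-TD mice had Sftpc-DreER and R26-RSR-tdtomato. All 3 lines thus carry a tamoxifen-inducible recombinase and the tdTomato reporter, and each recombinase is driven from Sftpc, an AT2 gene, or from Scgb1a1, a club cell gene. The sources used here do not state the strain, the age, the induction or how many mice were used. Each line therefore counted as 1 sample, no test between groups was possible, and no p-value is printed. The labels also give each cell a sub-type; the way it was assigned is not stated, and where it rests on the same reads the sub-types are not independent of them. Of the cells of BASCs-Tracer, 15 were club cells, 6 AT2 cells and 1 a ciliated cell, and the rest were BASCs (85 on plate 1 and 53 on plate 2). Scgb1a1-TD held 38 BASCs, 24 ciliated cells, 97 club cells and 1 AT2 cell, which is left out as a group of its own. Sftpc-TD held 11 BASCs, and the rest were AT2 cells (60 on plate 4 and 89 on plate 5).

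Levels are counts per 1000000 gene-assigned reads (CPM), pooled over the cells of a group unless a value is said to be that of a cell. Intervals in brackets are exact Poisson 95% intervals and, like the Clopper-Pearson intervals of shares, cover counting error only; cells of a group spread far more. Log2 ratios are of pooled CPM with 1 CPM added to both. A member was called higher or lower at 2-fold or more, among genes with 5 CPM or more in either group. Cells held 3379 to 3781974 reads with a median of 1000465, and group medians ran from 775502 in tracer BASCs to 1212915 in Sftpc-TD BASCs. Pooled Sftpc was 174513 CPM and Scgb1a1 13416 CPM in tracer BASCs, and 14297 and 139724 CPM in tracer club cells. In Sftpc-TD AT2 cells Sftpc was 160638 CPM and Scgb1a1 1285 CPM. These markers did not set all BASCs apart from AT2 cells. Scgb1a1-TD BASCs had Sftpc at 258012 CPM and Scgb1a1 at 3518 CPM, against 145460 and 3766 CPM in tracer AT2 cells. Their 12 club cell markers summed to 12723 CPM, against 16690 CPM in Sftpc-TD AT2 cells. Much of both sums was Cbr2, at 6348 and 13919 CPM. Scgb1a1 (3518 and 1285 CPM) and Scgb3a2 (65.9 and 9.82 CPM) went the other way, so the sums do not rank the club cell signal. Foxj1, the ciliated cell regulator, was at 349.3 CPM in Scgb1a1-TD ciliated cells. The single tracer cell labelled ciliated had no Foxj1 read, but 9 of the 10 ciliated markers were at 5 CPM or more in it. The 10 summed to 4712 CPM, against 11523 CPM in Scgb1a1-TD ciliated cells and 317.7 CPM in tracer BASCs. That single cell is left out of the comparisons. The Y-linked Ddx3y was at 72.8 CPM in tracer BASCs and 61.9 CPM in Scgb1a1-TD club cells but at 0.0416 CPM in Sftpc-TD AT2 cells, where Xist was at 218.4 CPM. Sex and line therefore cannot be told apart where Sftpc-TD is set against another line. Tracer cells lay on plates 1 and 2, Scgb1a1-TD cells on plates 2, 3 and 4, and Sftpc-TD cells on plates 4 and 5, so plate 2 is the plate on which tracer and Scgb1a1-TD cells can be compared directly, and between tracer and Sftpc-TD cells plate cannot be told apart from line either.

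Thrombospondin 1, the product of Thbs1, is a secreted matricellular glycoprotein that binds matrix, CD47 and CD36, and can release TGF-beta from its latent form. TIMP proteins bind the active site of matrix metalloproteinases, and TIMP3, which stays bound to matrix, also inhibits ADAM and ADAMTS proteases. The urokinase receptor PLAUR holds urokinase at the cell surface, where it makes plasmin, the protease that clears fibrin. Tissue factor, the product of F3, starts blood clotting when it meets factor VII, and thrombin made downstream cleaves the receptor PAR1, the product of F2r. These systems are known for their part in the repair of injured lung. BASCs are described at the junction of bronchiole and alveolus and carry both club cell and AT2 products.

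Promoter sequence is shown first for 4 members, since Plaur, F3 and Timp3 were all higher in tracer than in Scgb1a1-TD club cells while F2r was not. RefSeq promoter windows of GRCm38.p6, which run from 250 bases before to 50 bases after the annotated start, were matched by symbol for 7 of the 9 members; Thbs1 and Plau had no entry. Adam19 has 3 windows, which makes 9 in all. The motif searched was TGANTCA, the AP-1 site, which reads the same on both strands and is bound by FOS and JUN proteins. It was found in 4 of the 9 windows (F3, Plaur, F2r and 1 of the 3 of Adam19), against 7.81% of the 32851 windows of all genes. The GC box GGGCGG, on either strand and with no overlap with the first motif, was found in 7 of the 9 windows, against 35.7% of all windows. Such a match describes letters and is not a bound site. The windows run 5′ to 3′ on the gene's strand, with TGANTCA matches in capitals; F3 is chr3:121723287-121723586 on the plus strand, Plaur chr7:24462233-24462532 on the plus strand, F2r chr13:95618417-95618716 on the minus strand, and Timp3 chr10:86300162-86300461 on the plus strand.
F3: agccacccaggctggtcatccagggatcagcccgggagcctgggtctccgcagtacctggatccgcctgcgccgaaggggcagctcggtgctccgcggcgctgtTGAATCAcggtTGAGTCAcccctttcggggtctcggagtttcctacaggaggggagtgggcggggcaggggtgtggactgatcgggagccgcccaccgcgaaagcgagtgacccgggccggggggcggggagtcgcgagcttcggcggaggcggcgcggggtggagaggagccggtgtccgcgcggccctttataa
Plaur: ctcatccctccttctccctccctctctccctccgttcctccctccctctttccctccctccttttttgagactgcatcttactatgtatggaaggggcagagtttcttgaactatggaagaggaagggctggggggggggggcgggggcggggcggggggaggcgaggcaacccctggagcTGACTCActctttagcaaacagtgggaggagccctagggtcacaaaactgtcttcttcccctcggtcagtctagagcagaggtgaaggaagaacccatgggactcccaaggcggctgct
F2r: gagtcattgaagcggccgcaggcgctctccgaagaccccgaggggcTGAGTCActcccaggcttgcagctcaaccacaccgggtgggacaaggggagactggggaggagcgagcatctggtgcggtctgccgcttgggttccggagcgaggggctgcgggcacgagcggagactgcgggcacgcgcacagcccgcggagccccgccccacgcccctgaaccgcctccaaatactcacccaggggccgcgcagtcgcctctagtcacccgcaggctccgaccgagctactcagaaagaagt
Timp3: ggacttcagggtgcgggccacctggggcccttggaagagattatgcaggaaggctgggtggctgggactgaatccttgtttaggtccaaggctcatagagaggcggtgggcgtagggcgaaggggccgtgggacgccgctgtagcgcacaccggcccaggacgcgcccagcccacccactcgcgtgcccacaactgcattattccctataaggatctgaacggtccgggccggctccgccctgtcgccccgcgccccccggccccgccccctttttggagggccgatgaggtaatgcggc
The F3 window has 2 matches, and the Plaur and F2r windows have 1 each; the Plaur match begins 69 bases before the start. The Timp3 window has no match in these letters.

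Thbs1 (ENSMUSG00000040152, chromosome 2, 118111876 to 118127133, plus strand) was higher in the tracer line than in the other lines, and within the tracer its level was higher in club cells than in BASCs. It was at 395.2 CPM in the tracer BASCs, 1346 CPM (1327 to 1365) in the 15 tracer club cells and 85.9 CPM (77.96 to 94.4) in the 6 tracer AT2 cells. In Scgb1a1-TD it was at 51.5 CPM in BASCs, 280.7 CPM in ciliated cells and 90.03 CPM in club cells, and in Sftpc-TD it was at 341.1 CPM in BASCs and 136.6 CPM in AT2 cells. BASCs of the tracer and of Sftpc-TD were thus high for Thbs1, and those of Scgb1a1-TD were the lowest of the 8 groups. By plate, tracer BASCs held 271.3 and 599.5 CPM and Sftpc-TD BASCs 230.7 and 414.4 CPM, ranges that overlap each other and that of the ciliated cells (213.6 to 340.1 CPM). Scgb1a1-TD club cells held 75.2 to 123.9 CPM by plate, which lies below both plates of tracer BASCs and close to the Sftpc-TD AT2 cells at 152.9 and 128.3 CPM.

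Single cells differed widely in Thbs1. Tracer BASCs ran over cells from 0 to 4311 CPM with a median of 50.8 CPM, against 0 to 736 CPM with a median of 1.64 CPM in Scgb1a1-TD BASCs, and the groups overlapped. Of tracer BASCs, 46.4% held more than 100 CPM, against 7 of 38 (18.4%) Scgb1a1-TD BASCs and 7 of 11 (63.6%) Sftpc-TD BASCs. All 15 tracer club cells held more than 100 CPM, the lowest 110 CPM, against 19 of 97 (19.6%) Scgb1a1-TD club cells, whose highest cell reached 1404 CPM. 1 tracer BASC held 29.5% of the reads of its group, and without it the group was at 286.2 CPM. 1 tracer club cell, on plate 2, held 39.1%, and without it that group was at 1051 CPM. That level still includes a club cell of plate 1 at 7697 CPM. On plate 1 the median club cell held 330.9 CPM, while the pooled level was 1652 CPM. The level without both cells was not computed, so the pooled club level is not firm.

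A low level of Thbs1 moved with the plate. Of the 85 tracer BASCs on plate 1, 41 held above 0 and up to 20 CPM and 1 held no read. Of the 53 on plate 2 these were 16 and 1. The median Scgb1a1-TD club cell held 14.99 CPM on plate 2, which it shared with tracer cells, but 0.999 CPM on plate 3 and 2.97 CPM on plate 4. With each cell thinned to 100000 reads (12 of 480 cells were shallower and left out), a Thbs1 read was found in 73.7% (65.4 to 80.9) of tracer BASCs, 29.7% (15.9 to 46.98) of Scgb1a1-TD BASCs and 40.4% (30.4 to 51.1) of Scgb1a1-TD club cells; without thinning the shares were 98.6%, 76.3% and 70.1%. The part of the plate in these shares was not tested. The shares above 100 CPM were 42.4% and 52.8% in tracer BASCs on plates 1 and 2, and 18.2%, 16.7% and 33.3% in Scgb1a1-TD club cells on plates 2, 3 and 4.

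Against Scgb1a1-TD club cells the log2 ratio of Thbs1 in tracer BASCs was 2.12, and 2.36 on plate 2 alone, with all 6 pairs of plates higher (1.12 to 2.98). Against Scgb1a1-TD BASCs it was 2.92, and 2.60 on plate 2, where Scgb1a1-TD has 5 BASCs. Against Sftpc-TD AT2 cells it was 1.52, with 4 of 4 pairs of plates higher (0.82 to 2.22), and 0.98 without plate 2, which is below 2-fold. Against Sftpc-TD BASCs it was 0.21, with 1 of 2 plate pairs higher. Within the tracer line BASCs were below club cells by a log2 ratio of -1.76 (-2.60 on plate 1, and -0.98 on plate 2, which is short of 2-fold). The ratio on plate 1 includes the club cell at 7697 CPM and was not computed without it. Within Sftpc-TD BASCs were above AT2 cells by 1.31 (0.59 on plate 4, from 4 BASCs, and 1.68 on plate 5). Thbs1 is also a platelet product. The 9 platelet and megakaryocyte markers summed to 10.03 CPM in tracer BASCs and 3.11 CPM in tracer club cells (range over the groups 0 to 13.7 CPM). Pf4 was the highest of them in both, at 6.21 and 3.11 CPM, while Ppbp, Gp9, Gp1bb and Treml1 were at 0 in both. 12 tracer BASCs and 1 tracer club cell held 50 CPM or more of this list. Endothelial cells make it too, and the 10 endothelial markers summed to 217.7 CPM in tracer BASCs, 333.7 CPM in Scgb1a1-TD BASCs and 150.1 CPM in Scgb1a1-TD club cells, and were highest in Sftpc-TD BASCs (344.2 CPM). The part of such cells in the level of Thbs1 was not tested.

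**Figure D1:**
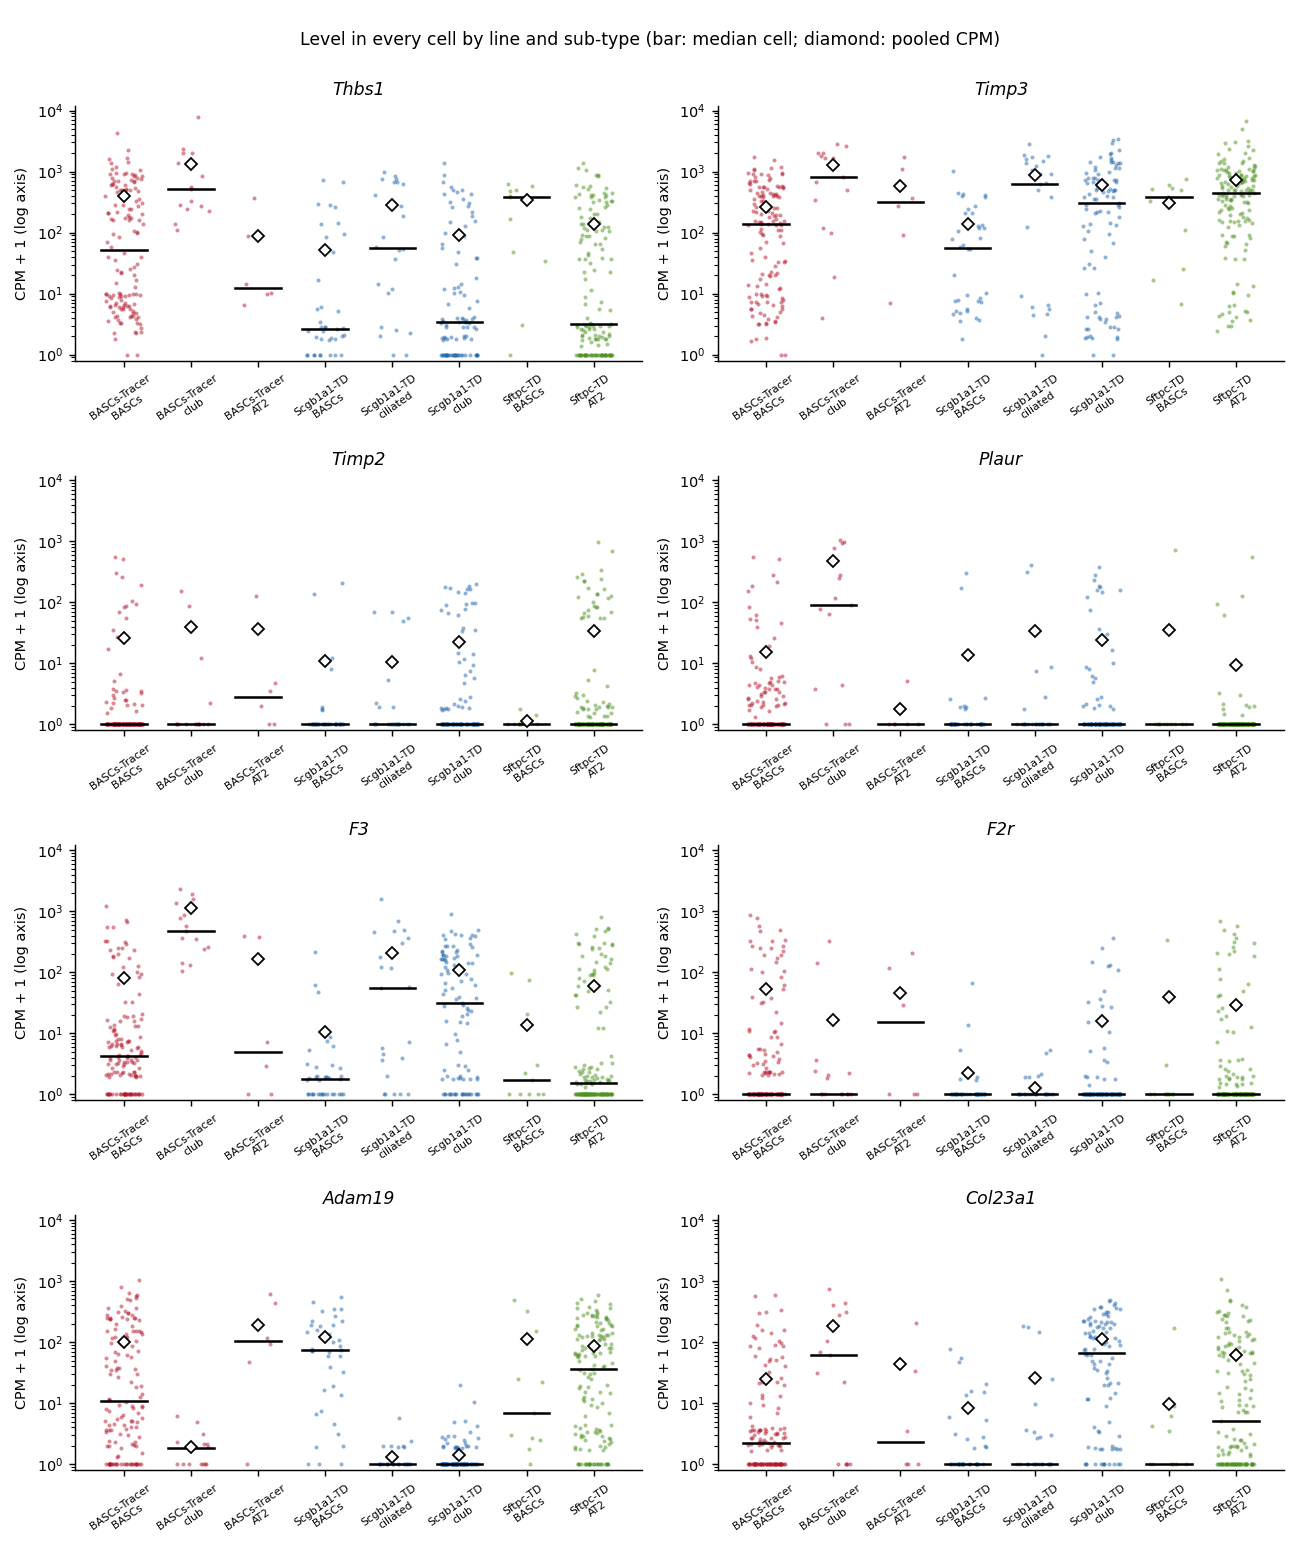
CPM plus 1 on a log axis in every cell, for 8 members, by line and sub-type; red points are BASCs-Tracer, blue Scgb1a1-TD and green Sftpc-TD cells, bars are median cells and diamonds pooled CPM. All 15 tracer club cells lie above 100 CPM for Thbs1 and F3, and Adam19 stays at or below 18.97 CPM in the club and ciliated cells.

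Timp3 (ENSMUSG00000020044, chromosome 10, 86300372 to 86349506, plus strand) was lower in BASCs than in the other sub-types of each line, and most tracer cells were BASCs. Over whole lines it was at 383.6 CPM in BASCs-Tracer, 528 CPM in Scgb1a1-TD and 689 CPM in Sftpc-TD. Within the tracer it was at 257.5 CPM (254.5 to 260.6) in BASCs but at 1275 CPM (1257 to 1293) in club cells, the highest of the 8 groups, and 569 CPM in AT2 cells. In Scgb1a1-TD it was at 136.9 CPM in BASCs, 894 CPM in ciliated cells and 606 CPM in club cells, and in Sftpc-TD at 310 CPM in BASCs and 713 CPM in AT2 cells. The log2 ratio of BASCs was -2.30 against club cells of the tracer, -2.14 against club cells of Scgb1a1-TD and -1.20 against AT2 cells of Sftpc-TD. On the plates that held both groups the ratios ran from -3.08 to -1.36 in the tracer and from -3.52 to -1.87 in Scgb1a1-TD. In Sftpc-TD it was -1.83 on plate 5, from 7 BASCs, but -0.39 on plate 4, where 4 BASCs were at 448.9 CPM and 60 AT2 cells at 586.8 CPM, and it was -0.98 by the mean over cells of both plates, short of 2-fold. Against the 6 tracer AT2 cells it was -1.14, and -0.21 once the cell with most Timp3 reads was left out of each group.

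The cells overlapped. The median tracer BASC held 140 CPM and the median tracer club cell 802 CPM, where club cells ran from 3.06 to 2859 CPM. The median Scgb1a1-TD BASC held 54.6 CPM and the median club cell 310 CPM. In Sftpc-TD the median BASC held 376.7 CPM and the median AT2 cell 447.5 CPM, closer than the pooled levels, and AT2 cells reached 6737 CPM. Tracer BASCs were above Scgb1a1-TD BASCs for Timp3 by a log2 ratio of 0.91 and about level with Sftpc-TD BASCs (-0.27), so BASCs of the tracer were not the lowest of the 3 kinds. Timp3 lies inside Syn3, which is on the other strand and had 9887 reads over all cells; whether the reads were counted by strand is not given, so reads where exons overlap cannot be told apart.

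Timp2 (ENSMUSG00000017466, chromosome 11, 118301069 to 118355740, minus strand), whose protein also takes part in the activation of MMP2, was found in few cells. It was at 25.04 CPM in tracer BASCs, 38.5 CPM in tracer club cells and 36.2 CPM in tracer AT2 cells, at 9.89 CPM in Scgb1a1-TD BASCs, 9.72 CPM in ciliated and 21.5 CPM in club cells, and at 0.159 CPM in Sftpc-TD BASCs and 33.1 CPM in AT2 cells. The 11 Sftpc-TD BASCs held 2 reads in all. After thinning, a read was found in 12.8% (7.63 to 19.7) of tracer BASCs and 27.7% (18.9 to 37.9) of Scgb1a1-TD club cells. In tracer club cells 1 cell held 86.5% of the reads, and the group was at 6.64 CPM without it, so the order of the groups for Timp2 is not firm. Per kilobase of exon, Timp3 was at 31.6 CPM and Timp2 at 6.43 CPM in tracer BASCs, and Timp3 at 156.5 CPM and Timp2 at 9.87 CPM in tracer club cells. Of the rest of the family, Timp1 was at 1.23 CPM in tracer BASCs and at 0.0206 CPM or less in the other groups, Timp4 was at 37.9 CPM in Scgb1a1-TD ciliated cells and at 0.0503 CPM or less elsewhere, and Reck, a membrane-anchored inhibitor of metalloproteinases, was at 6.45 CPM in tracer BASCs and 11.8 CPM in Sftpc-TD AT2 cells.

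Plaur (ENSMUSG00000046223, chromosome 7, 24462484 to 24475968, plus strand), the urokinase receptor, was high in the tracer line through the reads of its club cells. Over whole lines it was at 66.4 CPM in BASCs-Tracer, 22.1 CPM in Scgb1a1-TD and 9.93 CPM in Sftpc-TD, but the 15 tracer club cells held 81.7% of the tracer's Plaur reads and the BASCs 18.2%, against 11.4% and 83.8% of its reads of all genes. It was at 476.6 CPM (465.4 to 488.0) in tracer club cells and 14.4 CPM (13.7 to 15.2) in tracer BASCs, against 13.01 CPM (11.9 to 14.2) in Scgb1a1-TD BASCs and 23.5 CPM (22.5 to 24.5) in Scgb1a1-TD club cells. 1 cell held 65.4% of the reads of the Scgb1a1-TD BASCs, and without the top cell of each group tracer BASCs were at 10.7 CPM and Scgb1a1-TD BASCs at 4.63 CPM. The other groups held 0.801 CPM in tracer AT2 cells, 33.7 CPM in ciliated cells, 33.7 CPM in Sftpc-TD BASCs and 8.37 CPM in Sftpc-TD AT2 cells. Of those, 1 cell held 64.3% of the reads of the ciliated cells, which were at 12.7 CPM without it, the Sftpc-TD BASCs' reads all came from 1 cell of 11, and 1 cell held 71.8% of the reads of the Sftpc-TD AT2 cells. Plaur is also a gene of myeloid cells, and Ptprc, the pan-leukocyte marker CD45, was at 91.01 CPM in Sftpc-TD BASCs, 12.5 CPM in tracer BASCs and 0.0690 CPM in tracer club cells. The 8 leukocyte markers summed to 173.6 CPM in tracer club cells and 128.9 CPM in Scgb1a1-TD club cells, most of it Lcp1 (157.9 and 122.9 CPM). Of the 8, 3 were at 5 CPM or more in tracer and 1 in Scgb1a1-TD club cells. Cd52 was at 0 in the former and Laptm5 at 0 in the latter. The 10 alveolar macrophage markers summed to 49.6 and 13.7 CPM in the same order, led by Cd68 at 36.9 and 8.48 CPM. 6 of 15 and 7 of 97 cells held 50 CPM or more of that list. The part of such cells in the level of Plaur was not tested.

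In tracer club cells 12 of 15 cells held a Plaur read and 7 held more than 100 CPM, against 27 of 97 and 9 of 97 Scgb1a1-TD club cells. The highest cells were at 1066, 974, 944 and 793 CPM in the tracer, and 382.7 CPM was the highest in Scgb1a1-TD. After thinning, 69.2% (38.6 to 90.9) of tracer club cells held a read, against 18.1% (10.9 to 27.4) of Scgb1a1-TD club cells. The log2 ratio of tracer over Scgb1a1-TD club cells was 4.29, and 4.51 on plate 2, and it stayed between 3.26 and 4.635 over 13 alternatives. It was 3.997 without cells of 50 CPM or more of the leukocyte list, which leaves 4 of 15 tracer and 39 of 97 Scgb1a1-TD club cells since most cells hold Lcp1, and 3.87 with Lcp1 left out of the list, which leaves 14 and 91. Plau, the enzyme that PLAUR binds, had a read in 0 of 480 cells, which allows a share of up to 0.625% of cells with a read if its reads were counted like those of other genes; the table does not show whether the authors' annotation or counting removed them. Of the 21865 protein-coding genes in the table, 24.2% had no read either. Plat, the tissue-type activator, was at 0.0375 CPM in tracer BASCs and at 31.5 CPM in ciliated cells. Anxa2, which holds plasminogen at the cell surface, was at 952 CPM in tracer club cells and 526.1 CPM in Scgb1a1-TD club cells.

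F3 (ENSMUSG00000028128, chromosome 3, 121723537 to 121735048, plus strand), which encodes tissue factor, showed the same kind of pattern. It was at 1131 CPM (1114 to 1149) in tracer club cells, 81.1 CPM (79.4 to 82.8) in tracer BASCs and 164.6 CPM in tracer AT2 cells. In Scgb1a1-TD it was at 9.51 CPM in BASCs, 203.9 CPM in ciliated cells and 109.5 CPM (107.5 to 111.6) in club cells, and in Sftpc-TD at 12.5 CPM in BASCs and 59.01 CPM in AT2 cells. All 15 tracer club cells held more than 100 CPM, from 104.4 to 2327 CPM with a median of 469.5 CPM, against 35 of 97 Scgb1a1-TD club cells, which ran from 0 to 889.5 CPM with a median of 30.8 CPM. The groups overlapped, and 4 tracer club cells lay above every Scgb1a1-TD club cell. The log2 ratio between them was 3.36, and 3.42 on plate 2.

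In BASCs, F3 was lower than in the partner sub-type of each line. The log2 ratio was -3.79 against club cells of the tracer, -3.40 against club cells of Scgb1a1-TD and -2.15 against AT2 cells of Sftpc-TD. It was -1.01 against the 6 tracer AT2 cells, of which the 2 on plate 2 held 391.1 and 375.7 CPM and the 4 on plate 1 held 0 to 6.15 CPM. Tracer BASCs themselves differed by plate, with 22.3 CPM on plate 1 and 177.8 CPM on plate 2, and 1 cell held 41.2% of the reads of all tracer BASCs. Their log2 ratio against Scgb1a1-TD BASCs was 2.96, and 1.12 without plate 2. 13.8% of tracer BASCs (19 cells) held more than 100 CPM, against 1 of 38 Scgb1a1-TD BASCs and 0 of 11 Sftpc-TD BASCs.

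F2r (ENSMUSG00000048376, chromosome 13, 95601803 to 95618487, minus strand), which encodes the thrombin receptor PAR1, was the member of the 4 chosen ones that was high in tracer BASCs and not in tracer club cells. It was at 52.7 CPM (51.3 to 54.1) in tracer BASCs, 15.3 CPM (13.4 to 17.5) in tracer club cells and 45.3 CPM in tracer AT2 cells. In Scgb1a1-TD it was at 1.21 CPM in BASCs, 0.272 CPM in ciliated cells and 15.2 CPM in club cells, and in Sftpc-TD at 39.1 CPM in BASCs and 27.8 CPM in AT2 cells. Both plates of tracer BASCs were close, at 54.2 and 50.1 CPM, and BASCs held 92.6% of the tracer's F2r reads, against 83.8% of its reads of all genes. It was nevertheless found in a minority of cells, with a read after thinning in 28.6% (21.1 to 37.1) of tracer BASCs, 10.8% (3.03 to 25.4) of Scgb1a1-TD BASCs, 12.8% (6.77 to 21.2) of Scgb1a1-TD club cells and 15.5% (10.1 to 22.4) of Sftpc-TD AT2 cells; without thinning the shares were 46.4%, 15.8%, 23.7% and 33.6%. More than 100 CPM was held by 19 tracer BASCs, and the highest held 855 CPM.

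The log2 ratio of F2r in tracer BASCs was 1.73 against Scgb1a1-TD club cells, with 6 of 6 plate pairs higher (0.22 to 3.001), and 4.604 against Scgb1a1-TD BASCs, where it was 1.06 on plate 2. Against Sftpc-TD AT2 cells it was 0.90, which did not reach 2-fold. The Sftpc-TD BASCs cannot be read for F2r, since 1 cell of 11 held 99.8% of their reads and the group was at 0.0900 CPM without it; the tracer club cells were likewise at 0.578 CPM without 1 cell. F2rl1, which encodes PAR2, was at 13.8 CPM in tracer BASCs, 0.552 CPM in tracer club cells and 24.7 CPM in Sftpc-TD AT2 cells. F2rl2 and F2rl3, the genes of the other thrombin-cleaved receptors, were at 0.484 CPM or less in the groups compared. Thbd, encoding thrombomodulin, was at 15.1 CPM in tracer BASCs, 0 CPM in tracer club cells and 3.91 CPM in Scgb1a1-TD club cells.

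**Figure D2:**
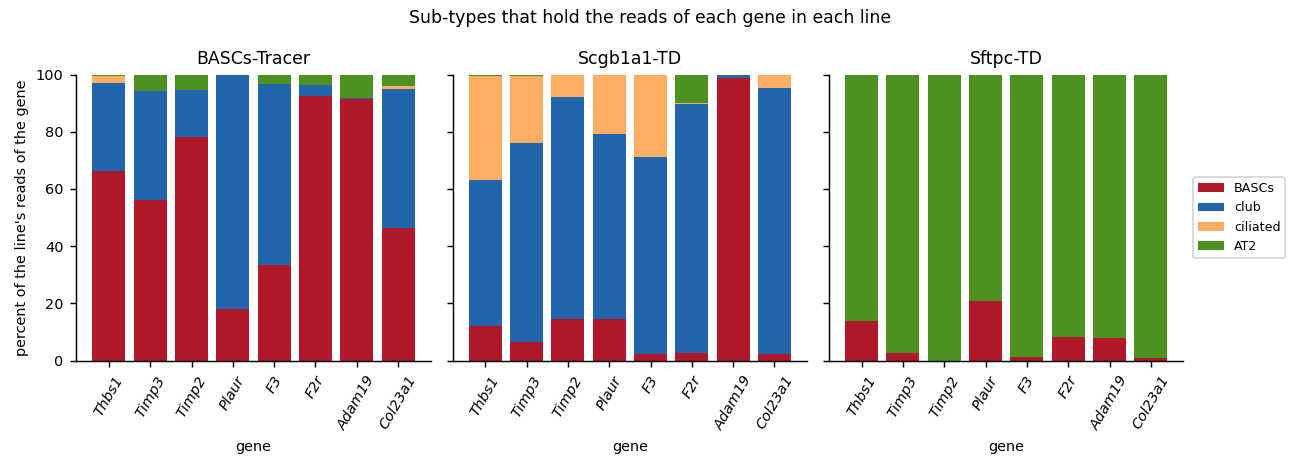
Percent of each line's reads of a gene (y axis) held by BASCs, club, ciliated and AT2 cells, for 8 members (x axis) in the 3 lines. In BASCs-Tracer, club cells held 81.7% of Plaur and 63.4% of F3 reads while BASCs held 92.6% of F2r and 91.6% of Adam19 reads; of the reads of all genes in this line, club cells held 11.4% and BASCs 83.8%.

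Adam19 (ENSMUSG00000011256, chromosome 11, 46055992 to 46147343, plus strand), which encodes a membrane-bound metalloprotease that sheds neuregulin, was found in BASCs and AT2 cells and hardly in club and ciliated cells. It was at 98.1 CPM in tracer BASCs, 0.898 CPM (0.478 to 1.54) in tracer club cells and 189.4 CPM in tracer AT2 cells. It was at 119.3 CPM in Scgb1a1-TD BASCs, 0.318 CPM in ciliated cells and 0.391 CPM (0.277 to 0.537) in club cells, and at 112.2 CPM in Sftpc-TD BASCs and 85.4 CPM in AT2 cells. No club or ciliated cell of either line exceeded 18.97 CPM. In BASCs of Scgb1a1-TD 16 of 38 cells held more than 100 CPM, against 0 of 97 club cells of the same line, and in the tracer 29.7% of BASCs (41 cells) against 0 of 15 club cells.

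The log2 ratio of BASCs over club cells was 6.43 in Scgb1a1-TD and 5.71 in the tracer, and on plates that held both it was 6.46 to 7.09 in Scgb1a1-TD and 4.43 to 6.08 in the tracer. Against AT2 cells the pooled ratio of BASCs was under 2-fold in 3 pairs, with no common direction. It was 0.20 for tracer BASCs against Sftpc-TD AT2 cells, but -1.12 without plate 1, and the 4 plate pairs ran from -1.21 to 0.69. Within Sftpc-TD it was 0.39, with -0.73 on plate 4 and 0.86 on plate 5, and against the 6 tracer AT2 cells it was -0.94, and -1.11 by the mean over cells. Between BASCs of the tracer and of Scgb1a1-TD the ratio was -0.28 over all cells and -2.85 on plate 2, where tracer BASCs held 38.7 CPM and the 5 Scgb1a1-TD BASCs 286.1 CPM. After thinning, a read was found in 55.6% (46.8 to 64.3) of tracer BASCs and 6.38% (2.38 to 13.4) of Scgb1a1-TD club cells. No club cell held more than 18.97 CPM of Adam19, and whether reads at such levels are background or low expression was not tested. The share in tracer BASCs was 80.4% without thinning and that in Scgb1a1-TD club cells 26.8%.

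Col23a1 (ENSMUSG00000063564, chromosome 11, 51289920 to 51583918, plus strand), which encodes a transmembrane collagen, was lower in BASCs in each line. It was at 23.5 CPM in tracer BASCs, 182.8 CPM in tracer club cells and 42.3 CPM in tracer AT2 cells, at 7.25 CPM in Scgb1a1-TD BASCs, 24.7 CPM in ciliated cells and 113.4 CPM in club cells, and at 8.51 CPM in Sftpc-TD BASCs and 60.8 CPM in AT2 cells. The log2 ratio of BASCs was -2.91 against club cells of the tracer, -3.79 against club cells of Scgb1a1-TD and -2.70 against AT2 cells of Sftpc-TD. More than 100 CPM was held by 8.70% of tracer BASCs and 6 of 15 tracer club cells, by 0 of 38 Scgb1a1-TD BASCs and 41 of 97 club cells, and by 1 of 11 Sftpc-TD BASCs and 20.1% of Sftpc-TD AT2 cells. Tracer and Scgb1a1-TD club cells differed by a log2 ratio of 0.68, short of 2-fold, and their medians were 60.4 and 64.6 CPM.

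**Figure D3:**
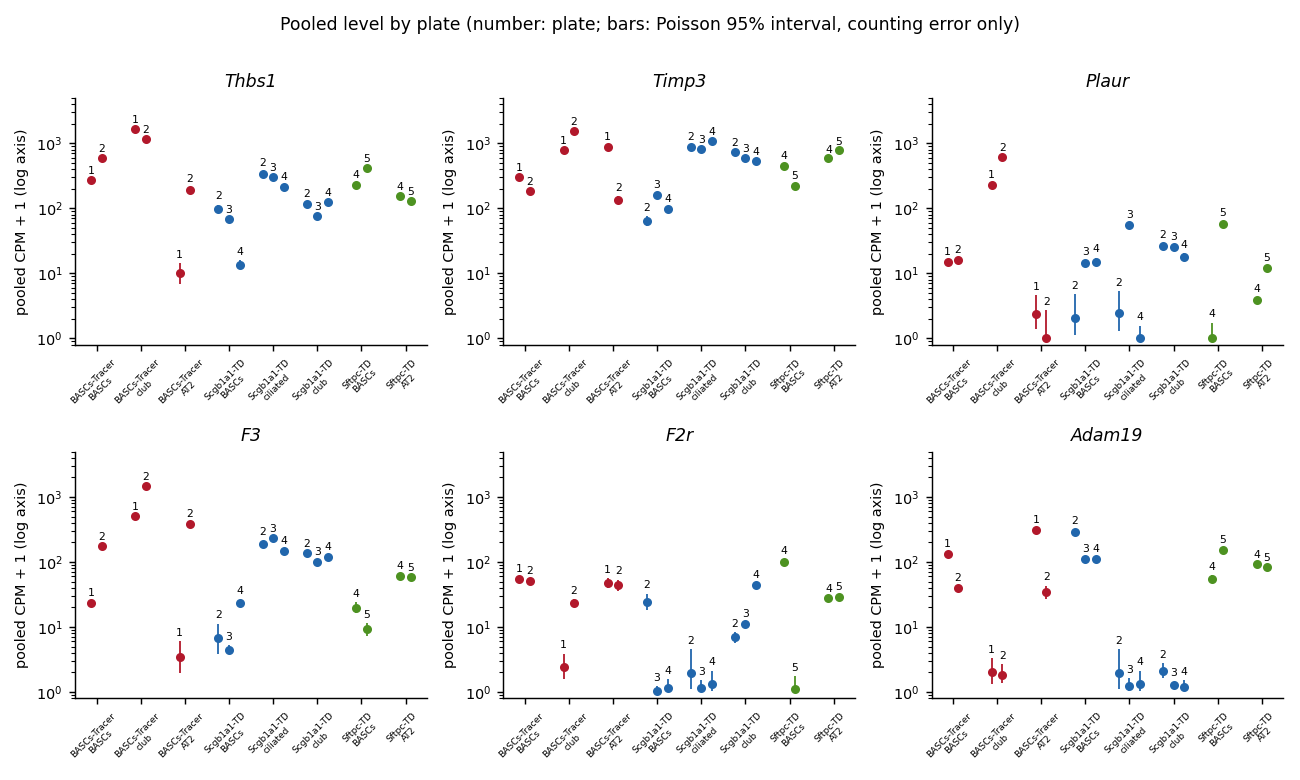
Pooled CPM plus 1 on a log axis for 6 members by group, with 1 point per plate, the plate number above it and Poisson 95% intervals. Thbs1, Plaur and F3 of tracer club cells stand above Scgb1a1-TD club cells on each plate, F2r of Scgb1a1-TD BASCs lies at 23.5 CPM on plate 2 and at 0.0392 and 0.163 CPM on plates 3 and 4, and the tracer AT2 points rest on 4 and 2 cells.

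Club cells of the 2 lines were set side by side because both are club cells by label and 8 tracer and 22 Scgb1a1-TD club cells shared plate 2. Of 7 measured members, 4 were higher in tracer club cells (Thbs1, Timp3, Plaur and F3) and 0 lower, against 21.1% of all genes higher and 29.1% lower; the rule drew on these values, so nothing is read from the counts. The 4 log2 ratios were 3.89, 1.07, 4.29 and 3.36 in that order of genes, and on plate 2 they were 3.34, 1.07, 4.51 and 3.42. Timp3 was 0.42 without plate 2. The 18 immediate early and dissociation genes had a median log2 ratio of 0.997 in this pair, against -0.07 over all genes, with 9 higher and 0 lower; Fos was at 2880 and 2758 CPM, Dusp1 at 2480 and 804 CPM and Egr1 at 2202 and 971 CPM in tracer and Scgb1a1-TD club cells. Myc, a growth regulator of the same list, was at 712 CPM in tracer club cells and 17.4 CPM in Scgb1a1-TD club cells. Among the 6 measured matricellular genes 4 were higher and 2 lower, with Ccn1, which encodes a matrix-bound growth signal, at 4279 and 915 CPM, Thbs3 at 87.8 and 4.62 CPM and Fn1, encoding fibronectin, at 69.5 and 2.84 CPM in the same order. Tracer club cells had Sftpc at 14297 CPM, against 4062 CPM, and summed AT1 markers at 4425 CPM, against 1151 CPM; the part of these and of the immediate early genes in the ratios was not tested.

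BASCs of the tracer were compared with 4 groups of the lines that carry 1 driver; Scgb1a1-TD ciliated cells were not set against them. Against Scgb1a1-TD club cells 3 of 8 members were higher (Thbs1, F2r and Adam19) and 2 lower (Timp3 and Col23a1), against 18.5% and 15.2% of all genes. Against Sftpc-TD AT2 cells 1 was higher (Thbs1) and 2 lower (Timp3 and Col23a1), against 9.90% and 9.17%. Against Scgb1a1-TD BASCs 5 were higher (Thbs1, Timp2, F2r, F3 and Col23a1) and 0 lower, against 21.1% and 10.2%. Against the 11 Sftpc-TD BASCs 3 were higher (Timp2, F3 and Col23a1) and 1 lower (Plaur, which rests on 1 Sftpc-TD cell), against 36.2% and 17.7%. All 4 comparisons share the tracer BASCs, so the values are not independent, and line, sex and plate cannot be told apart in those with Sftpc-TD. The rule drew on these values too. Pan-leukocyte markers were higher in tracer BASCs for 5 of 7 measured genes against Scgb1a1-TD club cells, and leaving out cells by that list is given in 2 ways. Cells of 50 CPM or more of the list are 47.8% of tracer BASCs and 58 of 97 club cells, most of them through Lcp1, and without them the log2 ratio of Thbs1 was 2.70, of F2r 1.57 and of Timp3 -1.46. With Lcp1 left out of the list, 7 tracer BASCs and 6 club cells were removed, and the ratios were 2.15, 1.75 and -1.25. Plaur, at -0.67 with all cells, was at -0.48 in the first way and -1.30 in the second, the latter past 2-fold lower. F3, at -0.43 with all cells, was at 0.36 and -0.43.

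Within the tracer line 7 of 8 members differed by 2-fold or more between BASCs and club cells, against 52.8% of all genes. F2r and Adam19 were higher in BASCs, and Thbs1, Timp3, Plaur, F3 and Col23a1 lower. Thbs1 was short of 2-fold on plate 2 (-0.98). Within Scgb1a1-TD 1 was higher in BASCs than in club cells (Adam19) and 5 lower (Timp2, Timp3, F2r, F3 and Col23a1), against 17.2% and 24.7%. F2r ran the other way on plate 2 (1.83, from 5 BASCs), and 1 cell held 81.25% of the F2r reads of the Scgb1a1-TD BASCs. Within Sftpc-TD 2 were higher in BASCs than in AT2 cells (Thbs1 and Plaur) and 4 lower (Timp2, Timp3, F3 and Col23a1), against 16.6% and 35.4%; the Plaur call rests on 1 cell and its log2 ratio of 1.89 was -1.76 without the cell with most reads in each group and -2.25 without cells of 50 CPM or more of the leukocyte list, which leaves 5 of the 11 BASCs. Timp3, F3 and Col23a1 are thus the 3 members whose pooled level was 2-fold or more lower in BASCs in all 3 of these within-line comparisons; for Timp3 in Sftpc-TD this did not hold by the mean over cells (-0.98) or on plate 4 (-0.39). Against the 6 tracer AT2 cells the ratios of tracer BASCs were -1.14, -1.01 and -0.82 for them, and that of Col23a1 was 0.77 without the cell with most reads in each group. Between ciliated and club cells of Scgb1a1-TD 4 of 7 members differed by 2-fold or more, against 57.9% of all genes; Thbs1 was higher in ciliated cells (1.63), and Timp2, F2r and Col23a1 lower.

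**Figure D4:**
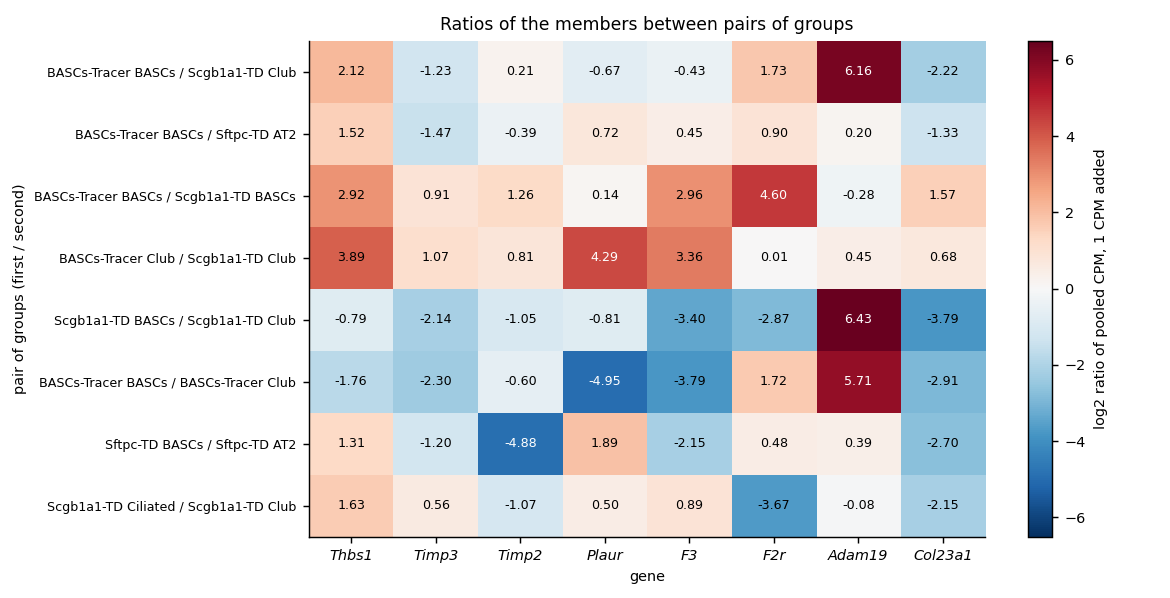
Log2 ratios of pooled CPM (1 CPM added) for 8 members in 8 pairs of groups, the first group named over the second; red is higher and blue lower in the first. Timp3, F3 and Col23a1 are blue in all 3 rows that set BASCs against the club or AT2 cells of their own line, and Adam19 is red in the rows that set BASCs against club cells.

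The other genes of these systems are given from lists. Of 9 measured collagen genes 7 were higher and 2 lower in tracer BASCs than in Scgb1a1-TD club cells, and of 10 in Scgb1a1-TD BASCs against the same club cells 7 were higher and 2 lower, against 18.5% higher and 15.2% lower over all genes in the first pair and 17.2% and 24.7% in the second. Endothelial markers were higher in the same pairs, 7 of 8 measured in the first (median log2 ratio 1.89) and 8 of 9 in the second (2.16), and their part in the collagen levels was not tested. Col6a1, a collagen VI chain, was at 185.6 CPM in tracer BASCs, 197.3 CPM in Scgb1a1-TD BASCs and 14.4 CPM in Scgb1a1-TD club cells, and Col4a1, a basement membrane collagen chain, was at 97.9 CPM, 137.1 CPM and 12.9 CPM in the same groups. Col4a5 ran the other way in tracer BASCs, at 26.2 CPM against 67.7 CPM in club cells, as Col23a1 did. Of 8 measured laminin and basement membrane genes 5 were higher and 1 lower in tracer BASCs than in Scgb1a1-TD club cells, led by Lamb3 at 138.9 and 8.26 CPM. Against Sftpc-TD AT2 cells 0 of 10 collagen genes were higher and 3 lower, and 0 of 8 laminin genes higher and 1 lower, against 9.90% and 9.17% over all genes.

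Among metalloproteinases, the proteases that TIMPs hold in check, 2 of 10 measured genes were higher and 2 lower in tracer BASCs than in Scgb1a1-TD club cells, near the 18.5% and 15.2% of all genes. Adamts1, a secreted protease that cuts versican, had a log2 ratio of 3.99 and Mmp15, a membrane-bound protease, 1.19; Adam28 was at 6.29 and 124.3 CPM and Adamts5, an aggrecan-cutting protease, at 1.02 and 56.3 CPM in tracer BASCs and Scgb1a1-TD club cells. Of 14 matrix receptors 4 were higher and 1 lower in that pair, to be read against the same shares. The thrombospondin receptors Cd36 and Cd47 were at 1124 and 178.9 CPM in tracer BASCs, against 1054 and 211.5 CPM in Scgb1a1-TD club cells, and Sdc4, a syndecan, was at 757 CPM, against 293.7 CPM. Of the plasminogen list, S100a10, the partner of annexin A2, was at 95.4 CPM in tracer BASCs and 6.80 CPM in Scgb1a1-TD club cells. The tissue factor and thrombin list had 3 genes measured in that pair, of which 3 were higher, against 18.5% of all genes.

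Over 16 pools of 1 group on 1 plate (5 cells or more each, 10959 genes), the genes whose log2(CPM + 1) was most like that of a member by Pearson r were as follows, as a description over pools that share plates. For Thbs1 they were Neat1 (r = 0.88), Actb (0.84), Ccn1 (0.84), Zfand5 (0.81) and Hspa8 (0.81), each highest in a tracer club pool. For Plaur they were Ptp4a1 (0.89), Trappc2 (0.87), Hnrnph2 (0.86), Srxn1 (0.85) and Rcan1 (0.84), also highest in the tracer club pool of plate 2. For F2r they were Mfap4 (0.86), Ctsl (0.81), Rtkn2 (0.80), Bgn (0.79) and Bzw2 (0.78). For Timp3 they were Kctd10 (0.90), Fam13a (0.89), Clip1 (0.89), Dpf2 (0.89) and Cog5 (0.89), and for Adam19 Cox6a2 (0.98), Il33 (0.98), Fabp5 (0.98), Acoxl (0.97) and Zfp385b (0.97). Among the members themselves Timp3 went with F3 (0.80) and against Adam19 (-0.77), and Thbs1 and Plaur had 0.47. Within the tracer BASCs deep enough to be thinned, Spearman's rho of the 28 pairs of members with reads ran from -0.23 (F2r and Col23a1) to 0.22 (Thbs1 and Plaur), which in sparse counts is no finding.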

How the data were processed

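480 single tdTomato-positive mouse lung cells were measured. The authors deposited read counts per gene and cell, not normalized and without molecular identifiers. Per the labels' protocols, lung cells were freed by enzymes (collagenase, dispase, elastase), sorted cells were lysed in wells, and Nextera XT libraries were prepared from PCR-amplified full-length cDNA. HISAT2, HTSeq and GRCm38 are named, per the submitters' processing notes, without versions. Their strand setting is not stated. The table's header is 1 place short, which was taken into account when columns were joined to cells; 0 columns were left over. Groups are line and labelled sub-type. Symbols and positions came from GENCODE M21 (GRCm38) and matched 53274 of 53379 identifiers.

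Reads were summed over the cells of a group and scaled to CPM, with 1 CPM added for log2 ratios (Python 3.11.15, NumPy 2.4.6, pandas 2.3.3, SciPy 1.17.1). Because PCR copies are counted and deeper cells weigh more, single cells can carry a pool. 10 pairs of groups were compared, without a test, since each line is 1 sample with no animals named. No doublet caller was run. The calling of ratios was tested on simulated pools that held counting error only, with no spread between cells or plates. That simulation therefore cannot show how firm the calls are in these cells.

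The members, 9 pathway lists and 12 marker lists were chosen with earlier results of these data known. All members are named, as are up to 4 list genes with the highest level and 20 CPM or more in a pair. The 5 genes most like 5 members are named too. Other list genes (Timp1, Timp4, Reck, Plat, F2rl1, F2rl2, F2rl3, F10, Thbd, Myc, Cd47 outside its pair) and marker genes were named after their values were seen. Alternatives were other scalings, added CPM, cell filters, plates left out and the top cell left out. Leaving out cells by a leukocyte list without Lcp1 was chosen after seeing the data. A check of protein sequences was not made here.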

Additional observations from a re-analysis of the deposited data

Results flagged for a closer look

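In the 6 tracer AT2 cells, the only group of 4 to 10 cells, 1 cell lay far above the other cells for 4 of the 8 members with reads. For Thbs1 the high cell held 367.998 CPM, on plate 2, and the next 85.5 CPM. For Timp2 it held 128.9 CPM, for Plaur 4.10 CPM (4 reads, the only ones of the group) and for Col23a1 204.4 CPM, against 32.4 CPM in the next. The rule used is set to mark about 1 in 20 groups of values that follow a normal distribution. Cell values here hold many zeros, so that rate does not apply to them, and nothing is read from the number marked. The 4 values come from 4 different cells.

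For F2r, BASCs lay above club cells in BASCs-Tracer (52.7 and 15.3 CPM, log2 ratio 1.72) and below them in Scgb1a1-TD (1.21 and 15.2 CPM, -2.87). The log2 ratios differ by 4.59, and the difference was not tested, since each line is 1 sample. On plate 2, which holds both lines, the ratio in Scgb1a1-TD was 1.83, from 5 BASCs and 22 club cells. In the tracer it was 1.11 there, from 53 BASCs and 8 club cells, so both lines had the same direction on that plate. The tracer club level rests on 1 cell.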

How the results depend on the processing

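Of 888 recomputed log2 ratios of the members, 711 stayed within 1.5-fold, 6 called ones changed sign and the rest moved further. The 6 were Plaur in a pair with Sftpc-TD BASCs. For tracer BASCs against Sftpc-TD BASCs the log2 ratio of Plaur was -1.17 and became 3.55 without the top cell of the gene, 3.63 without cells of 50 CPM or more of the leukocyte list and 3.39 with Lcp1 left out of that list; for Sftpc-TD BASCs against AT2 cells 1.89 became -1.76, -2.25 and -1.76. 1 cell of 11 holds those reads.

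Of the recomputed counts of members 25 moved by over 1.5 times. Members higher in tracer BASCs than in Sftpc-TD AT2 cells numbered 1, but 2 by the mean over cells, without plate 1, without plate 5 and with the second leukocyte list, 3 without leukocyte-marker cells and without the top cell, and 0 without plate 2. Against Scgb1a1-TD BASCs 5 higher became 3 with 10 CPM added, and 0 lower became 1 without plate 1 and on plate 2 alone (Adam19). Against Sftpc-TD BASCs 3 higher became 5 without the top cell, and 1 lower became 2 without plate 1 and 0 with 10 CPM added, without the top cell and with both leukocyte lists. In tracer against Scgb1a1-TD club cells 0 lower became 1 without plate 2, and 2 without leukocyte-marker cells or the top cell (Timp2 and F2r). F2r and Adam19, higher in tracer BASCs than club cells, became 1 by the mean over cells. In Sftpc-TD BASCs 2 higher became 1 without the top cell and with both leukocyte lists. In ciliated cells 1 higher became 2 without plate 4 and 3 without leukocyte-marker cells. The cause of these moves was not tested. The ratios of Thbs1, Plaur and F3 between club cells of the 2 lines ranged from 2.25 to 4.65 over 13 alternatives each, and those of Timp3, F3 and Col23a1 in BASCs against club cells of their own line from -4.77 to -1.36 over 10 and 11 alternatives. In Sftpc-TD BASCs against AT2 cells Timp3 ran from -2.06 to -0.98 over 9 alternatives, of which 8 were past 2-fold.

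No paired analysis was possible because the labels give cells of different groups no shared replicate numbers to pair by; ratios on plates that held both groups stand beside the results. Both cell number and depth limit the values: 1 cell is 9.09% of Sftpc-TD BASCs, and 39 of 64 shares of cells with a read moved without thinning.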
